A study of Mus musculus with 2 samples.

Results

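Amino acids cross membranes through carriers of the solute carrier (Slc) superfamily, and 7 of its families, Slc1, Slc3, Slc6, Slc7, Slc36, Slc38 and Slc43, were described in liver RNA of mice fed a high-fat diet. Members were all gene symbols of the count files that consist of 1 of these family names followed by a member number, which gave 59 of 22609 symbols. Of these, 27 (45.8%) had at least 50 reads summed over both libraries and are called measured below, against 50.5% of all symbols. A further 14 had 1 to 49 reads in all and 18 had no read. The rule uses names and no measured value. It leaves out Slc6a20a and Slc6a20b, which had 1 read each over both libraries, and Slc7a6os, which is not a carrier.

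There were 2 libraries, each from the liver of male mice. The library labelled Lrg1 knockout is described as coming from animals with a whole-body knockout of Lrg1, a secreted leucine-rich glycoprotein. The wild-type library came from C57BL/6J animals according to the treatment notes, and the strain label of both libraries is C57BL/6. Both groups received food with 45% of calories from fat for 16 weeks, starting at 8 weeks of age, so no animals on a normal diet enter the comparison. Whether a library holds RNA of 1 animal or of several is not stated. With 1 library per group there are no replicates, no test and no p-value. Every difference is one between these libraries, and every interval is a 95% interval for counting error only.

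The library labelled Lrg1 knockout held 18738397 reads in genes and the wild-type library 23311906. Levels are in CPM, the count per 1000000 reads of a library after scaling by the trimmed mean of M-values, so 1 read was worth 0.0519 CPM in the library labelled knockout and 0.0441 CPM in the wild-type library. A count of 0 allows a level of up to 0.156 CPM in the library labelled knockout and 0.132 CPM in wild type (3 counts, a one-sided limit, whereas the intervals of levels are two-sided). Lrg1 itself had 17572 reads in the library labelled knockout and 26958 in the wild-type library (log2 ratio -0.39), so its reads were abundant in both, and the counts do not show which part of the gene they cover. All 9 hepatocyte markers found in the files were measured and summed to 103769 CPM in the library labelled knockout and 118621 CPM in the wild-type library. Nearly all of that gap lay in Alb, with 64406 CPM in the library labelled knockout and 79170 CPM in wild type. In log2 ratio 7 of the 9 lay below 0 and 2 above, with a median of -0.12 that was -0.040 under scaling by total count. Sinusoidal endothelial markers were above 0 in log2 ratio for 8 of 9 genes (median 0.57), with a summed level of 369 CPM in the library labelled knockout and 248 CPM in wild type. Kupffer cell and macrophage markers were below 0 for 8 of 9 genes (median -0.30), with 432 CPM in the library labelled knockout and 528 CPM in wild type. Of all measured genes 51.7% lay below 0. In bulk liver, fewer cells of a type and less RNA per cell cannot be told apart.

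Hepatocytes take up amino acids from portal blood for protein synthesis, glucose production and urea formation, and they release glutamine again near the central vein. Sodium-coupled carriers such as the Slc38 and Slc1 families move amino acids against their gradient, exchangers of the Slc7 family swap one amino acid for another, and several Slc7 proteins reach the membrane only when joined to a heavy chain from the Slc3 family. Slc6 carriers use sodium and chloride and also move taurine, betaine, creatine and neurotransmitters. Some Slc36 and Slc38 proteins work in the lysosome, where amino acid supply is sensed. Transcripts of many carriers respond to amino acid shortage through the transcription factor ATF4.

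Promoter windows of 3 carriers are shown, from 250 bases before to 50 bases after the annotated start, as RefSeq gives them on GRCm38.p6 and read in the direction of the gene. Slc3a1 had the lowest log2 ratio of the measured carriers and Slc38a2 the highest among those with at least 300 reads, and Slc1a4 is a measured carrier whose window holds the core letters to which ATF4 and C/EBP factors bind. Capitals mark that core, TGATGNAA, which in Slc1a4 lies on the other strand across the annotated start.
Slc3a1: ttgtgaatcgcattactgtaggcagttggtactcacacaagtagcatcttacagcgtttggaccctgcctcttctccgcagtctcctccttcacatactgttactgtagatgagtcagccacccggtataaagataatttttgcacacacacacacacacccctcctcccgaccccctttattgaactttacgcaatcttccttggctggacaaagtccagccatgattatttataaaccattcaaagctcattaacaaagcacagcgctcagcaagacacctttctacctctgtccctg
Slc38a2: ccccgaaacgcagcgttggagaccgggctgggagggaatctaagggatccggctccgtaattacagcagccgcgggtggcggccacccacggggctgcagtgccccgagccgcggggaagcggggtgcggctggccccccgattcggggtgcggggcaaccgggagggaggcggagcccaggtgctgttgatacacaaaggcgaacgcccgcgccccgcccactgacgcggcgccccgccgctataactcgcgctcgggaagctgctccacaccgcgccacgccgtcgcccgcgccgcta
Slc1a4: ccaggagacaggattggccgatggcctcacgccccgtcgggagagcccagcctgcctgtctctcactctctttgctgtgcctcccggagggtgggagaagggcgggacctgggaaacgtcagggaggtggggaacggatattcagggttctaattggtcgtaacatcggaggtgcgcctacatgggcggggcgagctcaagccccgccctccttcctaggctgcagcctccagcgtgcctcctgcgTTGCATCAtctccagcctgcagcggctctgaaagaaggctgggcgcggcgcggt
These windows lie at chr17:85028097-85028396 on the plus strand for Slc3a1, at chr15:96699679-96699978 on the minus strand for Slc38a2 and at chr11:20332664-20332963 on the minus strand for Slc1a4. The reads were aligned to another build, mm9. The Slc3a1 window had a GC content of 46.3% and held a run of CA repeats, while the Slc38a2 window had 73% and the Slc1a4 window 65%. RefSeq windows were found for 41 of the 59 carriers, 62 windows in all. TGATGNAA, searched on both strands, was in 4 of these 62 windows (6.45%), belonging to Slc1a4, Slc7a7 and Slc7a11, and in 3.97% of all 32851 windows. The E-box letters CACGTG, searched the same way, were in 8 of 62 windows (12.9%) and in 7.15% of all windows. The D-box core TTATGNAA was in 1 of 62 windows (1.61%), that of Slc1a2, and in 3.38% of all windows. No overlap between these motifs was scored, and a match is a description of letters only.

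Carrier transcripts were dominated by a few genes in both libraries. Per kilobase of annotated exons, the 4 highest carriers, Slc38a4, Slc38a3, Slc6a13 and Slc7a2, made up 78.3% of the summed level of all carriers in the library labelled knockout and 79.6% in the wild-type library. Reads in carrier genes were 0.386% of all reads in genes in the library labelled knockout and 0.423% in the wild-type library.

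Slc38a4, a sodium-coupled importer of small neutral amino acids in liver, had the highest level with 251 CPM per kilobase (247 to 254) in the library labelled knockout and 270.5 (267 to 274) in the wild-type library. Slc38a3, the system N carrier that moves glutamine, histidine and asparagine, came next with 185 CPM per kilobase (182 to 187) in the library labelled knockout and 239.7 (237 to 243) in wild type. Their places swap when levels are set per kilobase of the longest transcript, since the annotated exons of Slc38a3 add up to 5277 bases and its longest transcript has 3151. Slc6a13, which carries taurine and GABA, had 58.0 CPM per kilobase (56.0 to 60.0) in the library labelled knockout and 82.9 (80.7 to 85.1) in the wild-type library. Slc7a2, the main importer of arginine, lysine and ornithine in liver, had 62.4 (61.2 to 63.5) in the library labelled knockout and 75.0 (73.8 to 76.2) in wild type. Slc7a2 was above Slc6a13 in the library labelled knockout and below it in the wild-type library, each time beyond the counting intervals. Per kilobase of the longest transcript this change of order was not seen, with 75.4 for Slc6a13 and 72.0 for Slc7a2 in the library labelled knockout, and 108 for Slc6a13 and 86.6 for Slc7a2 in wild type.

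A middle group lay between 10 and 30 CPM per kilobase in both libraries. Slc6a12, the betaine and GABA carrier, had 22.5 CPM per kilobase in the library labelled knockout and 23.7 in the wild-type library. Slc1a2, a glutamate carrier of hepatocytes around the central vein, had 21.5 in the library labelled knockout and 22.7 in wild type. The intervals of these carriers overlap within each library. Slc3a1 had 16.2 (15.0 to 17.5) in the library labelled knockout and 28.5 (27.0 to 30.0) in wild type, which placed it at rank 8 in the library labelled knockout and at rank 5 in the wild-type library. Slc38a10 had 18.0 CPM per kilobase in the library labelled knockout and 21.2 in wild type. Slc38a2, a system A carrier induced by amino acid shortage, had 15.7 in the library labelled knockout and 11.7 in wild type. Slc3a2, the CD98 heavy chain, had 10.9 in the library labelled knockout and 10.6 in wild type. The remaining 17 measured carriers lay below 10 CPM per kilobase in both libraries, and the lowest was Slc38a1, the system A carrier of brain and placenta, at 0.17 in the library labelled knockout and 0.15 in wild type.

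**Figure D1:**
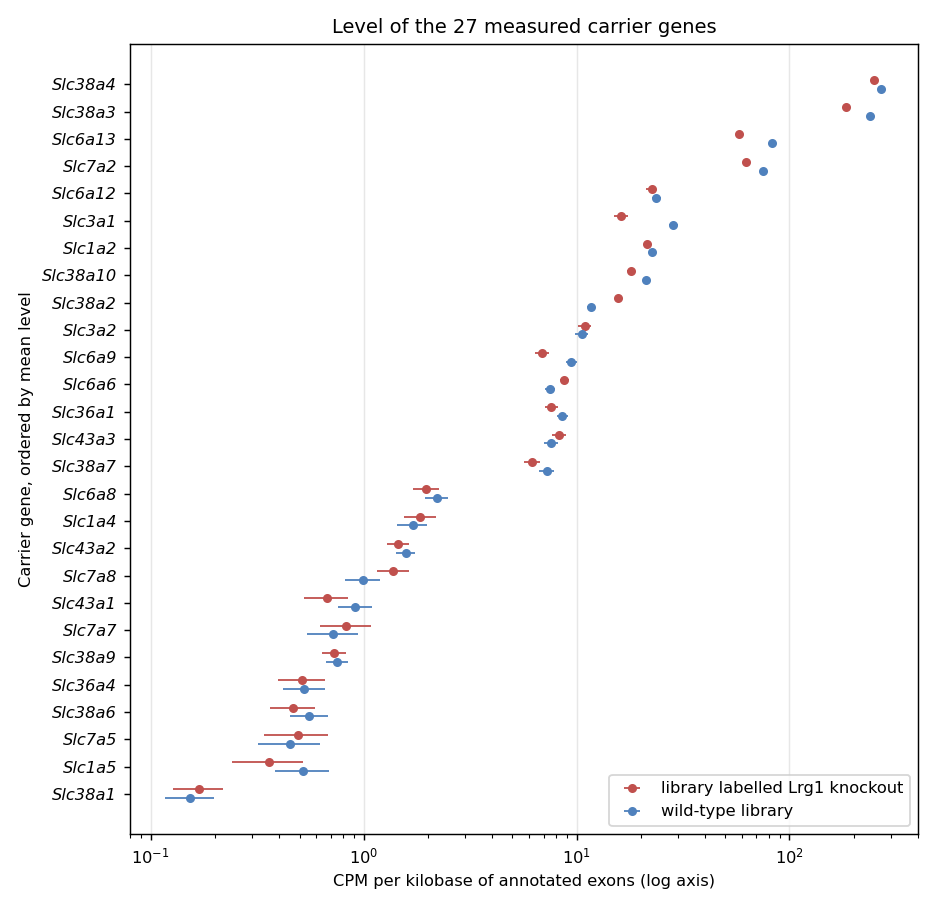
Level of the 27 measured carrier genes in CPM per kilobase of annotated exons on a log axis, with the library labelled Lrg1 knockout above the wild-type library for each gene. Points are the 2 libraries, bars are exact 95% Poisson intervals for counting error, and 4 genes stand above 50 in both libraries.

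Most carriers differed little between the libraries. None of the 27 measured carriers was at least 2-fold higher in the library labelled knockout and none at least 2-fold lower, against 1.70% and 2.50% of all 11411 measured genes. At 1.5-fold, 0 carriers were higher, against 5.85% of all measured genes, and 1 was lower, Slc3a1, against 6.91%. With so few carriers these shares are near the background. Log2 ratios ran from -0.81 to 0.47 with a median of -0.11, beside a median of -0.01 over all measured genes. Of the 27 carriers, 18 (66.7%) lay below 0 and 9 above, against 51.7% of all measured genes below 0. Under scaling by total count 14 of 27 (51.9%) lay below 0, against 40.3% of all measured genes, and the carrier median was -0.028.

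The counting interval of the ratio lay wholly below 1 for 11 carriers (40.7%) and wholly above 1 for 3 (11.1%), against 26.6% and 22.0% of all measured genes. Such an interval narrows with the number of reads, and the measured carriers had a median of 1481 reads over both libraries against 792 for all measured genes. The interval of the other 13 carriers included no difference. These counts depend on the scaling, since total count moved the median of all measured genes by 0.083 (log2). The upper log2 limits of Slc1a2 (-0.022), Slc36a1 (-0.034), Slc38a7 (-0.057) and Slc43a1 (-0.0094) lie within that shift of no difference. So does the lower limit of Slc43a3.

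**Figure D2:**
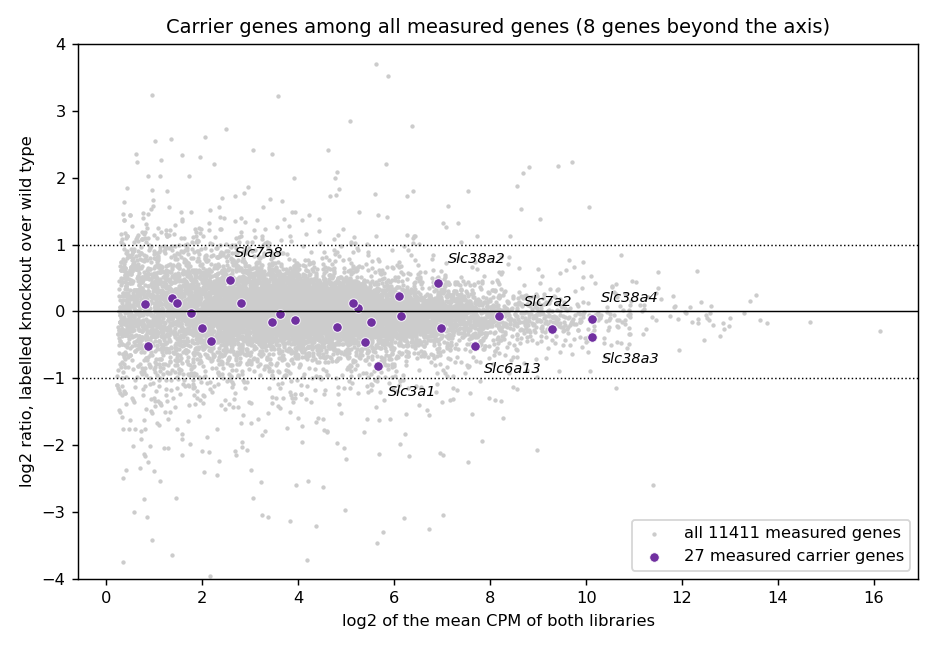
Log2 ratio of the library labelled Lrg1 knockout over the wild-type library against the log2 of the mean CPM, for all 11411 measured genes in grey and the 27 measured carriers in purple. Dotted lines mark 2-fold, 8 genes lie beyond the axis limits, and no carrier passes a dotted line.

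The ratios of the heavy chains differed beyond their counting intervals. Slc3a1, also known as rBAT, is the heavy chain of the carrier for cystine and dibasic amino acids that is defective in cystinuria. It had 710 reads (36.8 CPM) in the library labelled knockout and 1465 reads (64.7 CPM) in the wild-type library. The ratio was 0.569 (0.520 to 0.623), a log2 ratio of -0.81, so the wild-type level was 1.76-fold higher (1.60 to 1.92). Of all measured genes 3.77% had a lower ratio. It was also the carrier with the ratio farthest from 1 under every scaling tried. Slc3a2, the heavy chain of most other exchangers, had 743 reads (38.5 CPM) in the library labelled knockout and 844 (37.3 CPM) in the wild-type library, a log2 ratio of 0.05 (ratio 1.03, 0.936 to 1.14) whose interval included no difference. The light chains known to pair with Slc3a1, Slc7a9 and Slc7a13, had no read in either library.

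Exons of Slc3a1 overlap those of Prepl on the opposite strand over 601 bases, 26.5% of its annotated exons. No source used here gives the strand setting of the counting. Prepl had 484 reads in the library labelled knockout and 629 in the wild-type library, a log2 ratio of -0.15 with an interval that included no difference. Markers of kidney tubule, a tissue in which Slc3a1 is abundant, were near 0, with a summed level of 1.87 CPM in the library labelled knockout and 1.68 CPM in wild type. Slc34a1, Slc22a6 and Kap of that list had no read in either library.

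Light chains of the Slc3a2 group were low in both libraries. Slc7a8, an exchanger of large and small neutral amino acids, had 133 reads (6.90 CPM) in the library labelled knockout and 113 (4.99 CPM) in the wild-type library. Its log2 ratio of 0.47 (ratio 1.38, 1.07 to 1.79) was the highest of the measured carriers. Slc7a5, which exchanges large neutral amino acids, had 35 reads in the library labelled knockout against 38 in wild type, and Slc7a7, which exports cationic amino acids, had 53 in the library labelled knockout against 54 in wild type. The intervals of both included no difference. Exons of Slc7a7 overlap those of Oxa1l on the opposite strand over 232 bases. Macrophages also make Slc7a7, and their markers had a median log2 ratio of -0.30. Their part in its value was not tested. Slc7a6, a relative of Slc7a7, had 12 reads in the library labelled knockout against 18 in wild type, the cystine exchanger Slc7a11 had 2 in the library labelled knockout against 1 in wild type, and the brain exchanger Slc7a10 had none.

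Among the cationic amino acid carriers, which need no heavy chain, Slc7a2 had 10987 reads (569.8 CPM) in the library labelled knockout and 15513 (685 CPM) in the wild-type library. Its ratio was 0.832 (0.812 to 0.853), a log2 ratio of -0.27. Slc7a1, the cationic amino acid carrier of most other tissues, had 35 reads (1.82 CPM, 1.26 to 2.52) in the library labelled knockout and 14 (0.618 CPM, 0.338 to 1.04) in the wild-type library. These counting intervals do not overlap, but with 49 reads it lies 1 read under the minimum for a ratio. The measured carriers nearest to that minimum were Slc7a5 with 73 reads and Slc1a5 with 78. Slc7a4 had 9 reads in the library labelled knockout against 13 in wild type, Slc7a15 had 2 reads, both in wild type, and Slc7a3, Slc7a12 and Slc7a14 had none.

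**Figure D3:**
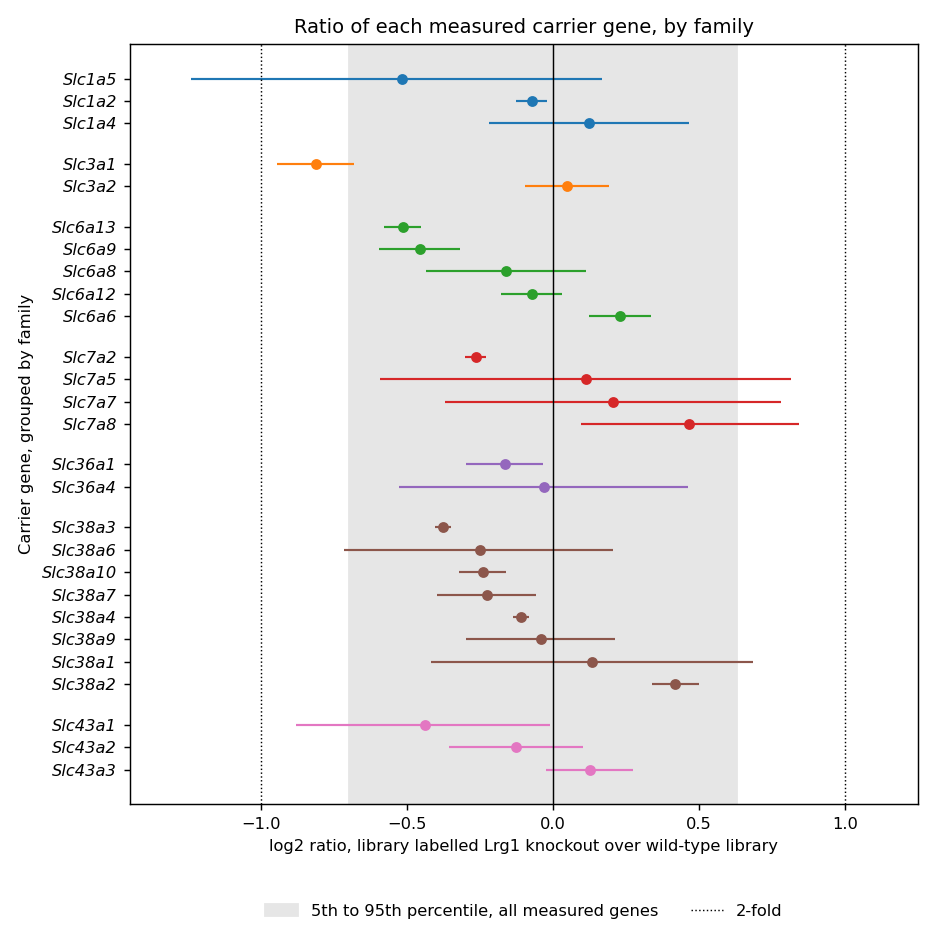
Log2 ratio of the library labelled Lrg1 knockout over the wild-type library for each measured carrier, grouped by family in colours, with exact 95% counting intervals as bars. The grey band spans the 5th to 95th percentile of all measured genes and dotted lines mark 2-fold; Slc3a1 at -0.81 lies left of the band and the other points lie inside it.

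The Slc38 family held the largest number of measured carriers, 8 of 11, and 6 of the 8 were below 0 in log2 ratio (5 of 8 under scaling by total count). Of all measured genes 51.7% lay below 0, and 40.3% under total count. Slc38a3 had 18778 reads (974 CPM) in the library labelled knockout and 28657 (1265 CPM) in the wild-type library. Its ratio was 0.770 (0.756 to 0.784), a log2 ratio of -0.38, and 13.5% of all measured genes had a lower one. Slc38a4 had 20585 reads (1067 CPM) in the library labelled knockout and 26105 (1152 CPM) in the wild-type library, a log2 ratio of -0.11 (ratio 0.926, 0.910 to 0.943). Slc38a2 went the other way, with 2671 reads (139 CPM) in the library labelled knockout and 2348 (104 CPM) in the wild-type library. Its ratio was 1.34 (1.26 to 1.41), a log2 ratio of 0.42, and 89.3% of all measured genes had a lower one. Of the system A carriers, Slc38a2 and Slc38a4 thus lay on opposite sides of 0, and the interval of Slc38a1 included no difference. Under scaling by total count the log2 ratio of Slc38a4 was only -0.028.

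The other measured members of the family, some of them lysosomal, lay between -0.25 and 0.13 in log2 ratio. Slc38a7, which exports glutamine from lysosomes, had 494 reads in the library labelled knockout and 679 in the wild-type library, a log2 ratio of -0.23 (ratio 0.855, 0.760 to 0.961). Slc38a9, the lysosomal arginine sensor upstream of mTORC1, had 234 in the library labelled knockout against 283 in wild type (-0.04), with an interval that included no difference. Slc38a10 had 2225 in the library labelled knockout against 3090 in wild type, a log2 ratio of -0.24 (ratio 0.846, 0.801 to 0.894). The intervals of Slc38a7 and Slc38a10 thus lay below 1. Slc38a6 had 70 in the library labelled knockout against 98 in wild type (-0.25) and Slc38a1 had 56 in the library labelled knockout against 60 in wild type (0.13). The intervals of Slc38a6 and Slc38a1 included no difference. Of the 50-base stretches of the longest Slc38a6 transcript 69.9% also occur in transcripts of other genes, so reads from them may not have been counted to it. Slc38a5, Slc38a8 and Slc38a11 had no read in either library.

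In the Slc6 family 5 of 17 members were measured and 6 had no read. Slc6a13 had 3247 reads (168 CPM) in the library labelled knockout and 5452 (241 CPM) in the wild-type library, a ratio of 0.700 (0.670 to 0.731) and a log2 ratio of -0.52. Slc6a9, a glycine carrier, had 683 reads (35.4 CPM) in the library labelled knockout and 1102 (48.6 CPM) in the wild-type library, a log2 ratio of -0.46 (ratio 0.728, 0.661 to 0.802). Exons of Slc6a9 overlap those of Ccdc24 on the opposite strand over 27.8% of their length, and Ccdc24 had 1 read in each library. Slc6a6, the taurine carrier of most tissues, had 1430 reads (74.2 CPM) in the library labelled knockout against 1434 (63.3 CPM) in wild type, a log2 ratio of 0.23 (ratio 1.17, 1.09 to 1.26). Slc6a6 and Slc6a13, which both carry taurine, thus had log2 ratios on opposite sides of 0.

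Slc6a12 had 1324 reads (68.7 CPM) in the library labelled knockout and 1637 (72.3 CPM) in the wild-type library, a log2 ratio of -0.07 (ratio 0.950, 0.883 to 1.02). Slc6a8, the creatine carrier, had 198 reads in the library labelled knockout against 260 in wild type, a log2 ratio of -0.16. The intervals of both included no difference. Slc6a12 and Slc6a13 lie on the same chromosome, 6, as does Slc6a6. Carriers of monoamines had few or no reads. Slc6a4, the serotonin carrier, had 12 reads in the library labelled knockout against 19 in wild type, and Slc6a2 and Slc6a3, which take up noradrenaline and dopamine, had none. Slc6a7, a proline carrier of brain, had 6 reads in the library labelled knockout against 18 in wild type. Slc6a19, the neutral amino acid carrier of intestine and kidney, had 0 reads in the library labelled knockout against 3 in wild type, and its partner protein Tmem27 had 1 read in the library labelled knockout and 0 in wild type. Slc6a14 and Slc6a17 had 0 and 1 reads in the library labelled knockout and 1 and 0 in wild type, and Slc6a5, Slc6a11, Slc6a15 and Slc6a18 had none.

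In the Slc1 family 3 of 7 members were measured. Slc1a2 had 5454 reads (283 CPM) in the library labelled knockout and 6744 (298 CPM) in the wild-type library, a ratio of 0.950 (0.917 to 0.985) and a log2 ratio of -0.07. Under scaling by total count the value was 0.0088, so its direction is not settled. Slc1a2 is 1 of 9 markers listed for pericentral hepatocytes, of which 4 lay above 0 in log2 ratio and 5 below, between -1.14 and 0.85. Glul of that list, the glutamine synthetase, had 20298 reads in the library labelled knockout against 27815 in wild type (log2 ratio -0.22). Slc1a4, an exchanger of alanine, serine and cysteine, had 140 reads in the library labelled knockout against 151 in wild type (0.12), and Slc1a5, a glutamine exchanger, had 29 in the library labelled knockout against 49 in wild type (-0.52). The intervals of both included no difference. The glutamate carriers of brain and retina had few reads. Slc1a3, Slc1a6 and Slc1a7 had 8, 1 and 1 in the library labelled knockout and 5, 1 and 6 in wild type. Slc1a1, the glutamate carrier of kidney and neurons, had none in either library.

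In the Slc36 and Slc43 families, Slc36a1 and Slc43a1 were lower in the library labelled knockout beyond their counting intervals. This depends on the scaling. Total count moved the median of all measured genes by 0.083, and the upper log2 limits of these carriers were only -0.034 and -0.0094. Slc36a1, which exports amino acids from lysosomes with protons, had 827 reads (42.9 CPM) in the library labelled knockout and 1090 (48.1 CPM) in the wild-type library, a log2 ratio of -0.17 (ratio 0.891, 0.813 to 0.976). Slc36a4 had 65 reads in the library labelled knockout against 78 in wild type (-0.03), and Slc36a2 and Slc36a3 had none. Slc43a1, a facilitated carrier of branched-chain amino acids in liver, had 74 reads in the library labelled knockout against 118 in wild type, a log2 ratio of -0.44 (ratio 0.738, 0.543 to 0.993), and 10.9% of all measured genes had a lower one. Slc43a2, its relative, had 280 in the library labelled knockout against 359 in wild type (-0.13). Slc43a3, a family member that carries purine nucleobases and not amino acids, had 713 in the library labelled knockout against 768 in wild type (0.13). The intervals of Slc36a4, Slc43a2 and Slc43a3 included no difference.

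Genes that act on amino acids inside the cell were set beside the carriers. In the list of the urea cycle and nitrogen disposal, 0 of 16 measured genes were 2-fold apart, 12 were below 0 and the median log2 ratio was -0.24. Over all measured genes 1.70% were 2-fold higher and 2.50% 2-fold lower, so 0 of 16 is near the background. Below 0 lay 51.7% of all measured genes, and 40.3% under scaling by total count. Gpt, the alanine aminotransferase, was at -0.59, Cps1, which starts the urea cycle, at -0.54 and Got1, a cytosolic aspartate aminotransferase, at 0.45. In the list of amino acid catabolism, 0 of 56 measured genes were 2-fold apart and 36 were below 0 (median -0.11), beside those same shares. Sds, which degrades serine, was at -0.88 with 1762 reads in the library labelled knockout and 3817 in the wild-type library. Prodh, which degrades proline, was at -0.82, Bckdhb, a subunit of the branched-chain dehydrogenase, at 0.76 and Tat, which degrades tyrosine, at 0.66. The carrier median was -0.11.

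In the list of creatine, taurine, betaine and glutathione metabolism 1 of 17 measured genes was 2-fold higher, against 1.70% of all measured genes. It was Gatm, the first enzyme of creatine synthesis, with 211 reads in the library labelled knockout and 121 in the wild-type library (log2 ratio 1.03). Gamt, which completes creatine synthesis, was at -0.67, and Bhmt, which uses betaine, at -0.61. Cdo1 and Csad, which make taurine from cysteine, were at 0.16 and 0.30, beside -0.52 for Slc6a13 and 0.23 for Slc6a6.

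The amino acid deprivation list, the genes that amino acid shortage and ATF4 are known to induce together with their regulators, lay mostly below 0. Of 24 measured genes 17 were below 0, against 51.7% of all measured genes, and the median log2 ratio was -0.25. Atf4 itself went the other way, with 2605 reads in the library labelled knockout against 2001 in wild type (0.61), as did Atf5 (0.53). At 2-fold 1 was higher and 2 were lower, beside 1.70% and 2.50% of all measured genes. At 1.5-fold 2 were higher and 9 lower, beside 5.85% and 6.91%. Asns, the asparagine synthetase, had 67 reads in the library labelled knockout and 13 in the wild-type library (2.55). Trib3, a pseudokinase, had 170 reads in the library labelled knockout against 493 in wild type (-1.30), and Vldlr, a lipoprotein receptor, had 55 in the library labelled knockout against 172 in wild type (-1.41). Carriers known to respond to amino acid shortage were named here after their values were seen, and they did not share a direction. Slc38a2 was at 0.42 and Slc7a1 had 35 reads in the library labelled knockout against 14 in wild type, while Slc6a9 was at -0.46. Slc7a5, Slc3a2 and Slc1a5 were at 0.11, 0.05 and -0.52 with intervals that included no difference, and Slc7a11 had 2 reads in the library labelled knockout against 1 in wild type. Slc1a4 and Slc7a7, which like Slc7a11 have a promoter window with the ATF4 core, were at 0.12 and 0.20. The intervals of Slc1a4 and Slc7a7 included no difference.

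**Figure D4:**
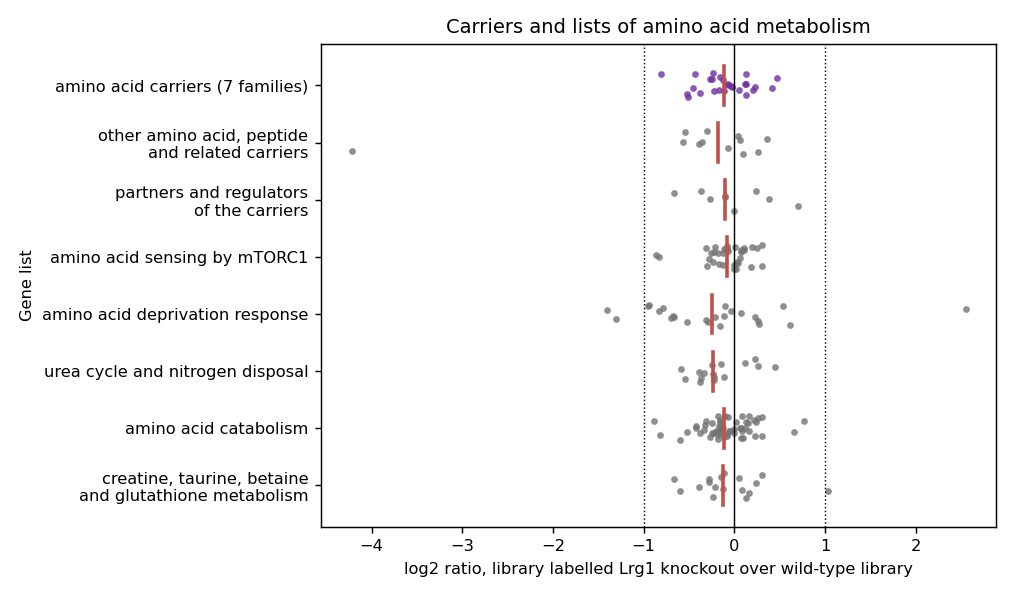
Log2 ratio of the library labelled Lrg1 knockout over the wild-type library for the measured carriers (purple) and for measured genes of 7 related lists (grey), with the median of each list as a red bar and 2-fold as dotted lines. The carriers span -0.81 to 0.47, and the deprivation list spans -1.41 to 2.55.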

How the data were processed

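Liver RNA was measured in 2 libraries, 1 labelled Lrg1 knockout and 1 labelled wild type. Per the labels, stranded libraries were made from poly(A) RNA and read from 1 end over 50 bases, and per the submitters' processing notes bcl2fastq, TopHat2 and HTSeq were used with the genome build mm9. No source used here gives versions, strand setting or annotation. The deposited values are raw counts of reads for each gene symbol, as the authors made them, with no normalization.

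Lines that name no gene were left out. They include reads outside genes (14.4% of uniquely aligned reads in the library labelled knockout and 14.0% in wild type) and reads in more than 1 gene (0.234% in the library labelled knockout and 0.231% in wild type). Counts were scaled by TMM in edgeR 4.0.16 under R 4.3.3, and log2 ratios took a prior count of 0.5. Ratios needed 50 reads summed over both libraries. Ratio intervals are exact Clopper-Pearson intervals given the sum of both counts, and level intervals are exact Poisson intervals, both at 95%. Reads carry no molecular identifiers and so need not be separate molecules, and the intervals cover counting error only. Exon lengths and overlaps came from GENCODE M21 on GRCm38, which differs from mm9, and all 59 carriers had a length.

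All carriers are accounted for in the counts of genes, those with 50 reads are named with both counts, and some genes that the rule or a list takes are not reported here. Folds and intervals belong to carriers 1.5-fold apart and the 10 highest per kilobase; others with an interval that excluded no difference, and Slc7a1, were added after their values were seen. In lists the 4 genes farthest from 0 could be named. Genes named beside a carrier, and Atf4 and Atf5, were chosen after their values were seen. Members and lists were chosen with earlier results of these data known. The ratio and interval steps were tested on simulated data. Alternatives were DESeq2 1.42.0 size factors, total counts with and without the 20 most abundant genes, other prior counts, minimum reads and thresholds, list means, lists without their farthest member, and transcript lengths. Other steps used Python 3.11.15 with pandas 2.3.3, scipy 1.17.1, numpy 2.4.6 and matplotlib 3.10.9.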

Additional observations from a re-analysis of the deposited data

Results flagged for a closer look

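Alignments to more than 1 place, which enter no count per gene, were 58.0% of the counted lines for the library labelled Lrg1 knockout and 50.3% for wild type. They are listed here because they form a large signal outside the values compared above, well past 3 counts. Their part in the carrier ratios was not tested.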

How the results depend on the processing

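No paired analysis was possible because each group has 1 library. No carrier with 50 reads was 2-fold apart under any scaling or prior count tried, and Slc3a1 stayed 1.5-fold lower under each. Lower minimums take in carriers under the 50 reads set for a ratio. With a minimum of 10 reads 1 carrier was 2-fold higher and 1 lower, and with a minimum of 1 read 2 and 6 were. At 1.5-fold these were 2 higher and 2 lower from 10 reads, and 4 and 7 from 1 read. Shares at these minimums were not computed for carriers or for all genes. The counts are thus no result about the carriers. Lowering the threshold to 1.5-fold gave 1 lower carrier in place of 0. Over all genes the numbers 2-fold higher and lower, 194 and 285, were 1243 and 1449 from 1 read, 458 and 525 from 10 reads and 100 and 166 from 200 reads, and 667 and 789 at 1.5-fold and 51 and 105 at 3-fold. The carrier median was -0.028 under total count, -0.051 when the 20 most abundant genes were left out of the total and -0.16 from 1 read. Total count moved the median of all measured genes by 0.083 (log2). It turned Slc1a2, and with it the Slc1 median and the pericentral marker median, to 0.0088. It also turned Slc6a12 to 0.0089, Slc36a4 to 0.052, Slc38a9 to 0.041 and the mTORC1 sensing median to 0.0051. Without the 20 most abundant genes Slc36a4 was at 0.028 and Slc38a9 at 0.017. The Slc1 median was 0.024 from 1 and from 10 reads. The pericentral median, -0.07, was 0.019 as a mean and 0.12 without its farthest member. The cause was not tested for these medians. Depth limits carriers under 50 reads.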

Other observations

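Carriers of amino acids, peptides and related solutes that the naming rule does not take, Slc6a20a and Slc6a20b among them, gave 12 measured genes of 18 in the files. Of these 0 were 2-fold higher and 1 was 2-fold lower, against 1.70% and 2.50% of all measured genes. The lower gene was Slc15a2, a peptide carrier, with 4 reads in the library labelled knockout and 97 in the wild-type library. Its log2 ratio was -4.22 (-6.27 to -2.96). Slc47a1, which exports organic cations and not amino acids, was at -0.57, and Slc16a10, a carrier of aromatic amino acids, had 2047 reads in the library labelled knockout against 2528 in wild type (-0.07) with an interval that included no difference. The list had a median of -0.19, and a mean of -0.47 that rests on Slc15a2. Its median also moved, to -0.07 without Slc15a2 and to -0.017 with a minimum of 200 reads.

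Among proteins known to bind or regulate the carriers, 0 of 9 measured genes were 2-fold apart. Over all measured genes 1.70% were 2-fold higher and 2.50% lower. Sgk1, a kinase that raises the surface level of several carriers, had 446 reads in the library labelled knockout and 321 in the wild-type library, a log2 ratio of 0.71. Sgk3 was at 0.38 and Sgk2 at -0.37. Cd44, a surface protein that stabilises the cystine exchanger, was at -0.67, and it is also made by immune cells. Their part in this value was not tested.

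In the list of amino acid sensing by mTORC1, 0 of 35 measured genes were 2-fold apart and the median was -0.08. The shares over all measured genes were 1.70% higher and 2.50% lower. Fnip2, a partner of folliculin, was at -0.87 with 497 reads in the library labelled knockout and 1065 in the wild-type library. Gatsl3, the older symbol of the arginine sensor Castor1, was at -0.83 with 30 reads in the library labelled knockout against 63 in wild type. Mtor itself was at -0.30.

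Marker lists of other cell types that could lie in the tissue were short. Cholangiocyte (0.01), neutrophil (0.24), small intestine (-0.18) and adipocyte (-1.44) medians rest on 2 measured genes each, with Cfd of the adipocyte list at -2.54. Erythroid (0.28), pancreatic acinar (0.47), kidney tubule (0.07) and neuron (-0.20) values rest on 1 gene each, and no T, NK or B cell marker was measured. Stellate cell and fibroblast markers had a median of 0.04 and a mean of -0.18 over 6 genes, with Col1a1 at -1.07. Hepatocyte (-0.12), periportal (-0.37) and pericentral (-0.07) markers had 9 measured genes each.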
